A study of Mus musculus with 40 samples.

Results

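The promoters of the cytosolic ribosomal protein genes were examined for 2 histone marks in mouse haematopoietic stem and progenitor cells. Members were the protein-coding genes on chromosomes 1 to 19 whose symbol is Rpl or Rps followed by a digit, or Rplp0, Rplp1, Rplp2 or Rpsa, without the Rps6k kinase genes. The rule used names and no measured value, and it found 88 of 20807 autosomal protein-coding genes in GENCODE mouse release 21. By name the 88 fall into 73 genes of ribosomal proteins proper, called core genes here (43 of the large subunit, counting the Rplp genes, and 30 of the small subunit, counting Rpsa), 8 paralogues, and 6 retrocopies, whose symbols contain -ps. The remaining member, Rps19bp1, encodes a protein that binds RPS19 and is not a part of the ribosome. Another 4 genes that fit the names lie on chromosome X (Rps4x, Rpl36a, Rpl39 and Rpl10) and are outside the rule.

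H3K27ac, which marks active promoters and enhancers, and H3K4me1, typical of enhancers and of the flanks of active promoters, were mapped by ChIPmentation, in which the transposase Tn5 adds sequencing adapters to immunoprecipitated chromatin. The mice were 21 days old and of 6 genotypes. Beside wild type these were NUP98-HOXD13 (a nucleoporin and homeobox gene fusion), Runx1-het and Flt3-ITD (an activating internal tandem duplication in the receptor kinase FLT3), with Flt3-ITD also joined to each of the other mutations, as Flt3-ITD/Runx1-het and Flt3-ITD/NUP98-HOXD13. Source names of the Runx1-het samples join Runxf and Vav in 1 name, and no label spells out what allele or transgene either word stands for. The dose of the Flt3-ITD allele, the promoter of the fusion and the number of mice per sample are not stated by the labels. Of 40 samples, 39 carried a mark and made up 12 groups, 9 of 3 samples and 3 of 4 (NUP98-HOXD13 for H3K27ac and Flt3-ITD/NUP98-HOXD13 for both marks). Each group has 1 pooled peak list, so no value per sample, error between animals or p-value is given. Read depth is unknown for the same reason.

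Ribosomal protein genes are short, rich in CpG, and among the most highly transcribed genes of growing cells. Their mRNAs begin with a terminal oligopyrimidine (TOP) tract, a C followed by a run of C and T, through which mTOR signalling adjusts their translation. Loss of 1 copy of several of them causes Diamond-Blackfan anaemia, a failure of red cell production, and blood stem cells are known for keeping protein synthesis low. Because all subunits are needed together, the genes are usually treated as a constant housekeeping set.

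The promoter sequences of 7 members show the kind of element these genes carry. They are the 3 highest and the 2 lowest core genes by mean H3K27ac percentile that have an entry in the RefSeq promoter table (GRCm38.p6, the build of the peak lists) and, for contrast, the paralogues Rpl3l and Rpl10l, which had no H3K27ac promoter peak. Each line gives the 100 bases before and 20 bases from the RefSeq start site, and capitals mark matches to the elements listed after them.
Rps27, chr3:90213629-90213748, minus strand: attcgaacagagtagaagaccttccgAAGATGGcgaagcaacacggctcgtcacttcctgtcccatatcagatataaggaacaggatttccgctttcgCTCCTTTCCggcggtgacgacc
Rpl4, chr9:64173287-64173406, plus strand: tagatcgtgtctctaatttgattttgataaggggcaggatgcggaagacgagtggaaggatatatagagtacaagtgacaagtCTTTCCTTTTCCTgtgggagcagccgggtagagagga
Rps13, chr7:116334171-116334290, minus strand: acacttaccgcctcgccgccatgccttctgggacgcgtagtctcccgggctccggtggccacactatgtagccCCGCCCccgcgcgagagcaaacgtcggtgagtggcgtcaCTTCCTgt
Rps10, chr17:27635225-27635344, minus strand: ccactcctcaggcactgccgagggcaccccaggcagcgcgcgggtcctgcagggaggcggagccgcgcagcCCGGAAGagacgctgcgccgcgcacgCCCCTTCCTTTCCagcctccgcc
Rpl35, chr2:39005112-39005231, minus strand: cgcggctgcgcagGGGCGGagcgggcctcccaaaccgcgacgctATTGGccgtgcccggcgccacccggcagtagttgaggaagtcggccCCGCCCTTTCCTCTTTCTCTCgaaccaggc
Rpl3l, chr17:24727726-24727845, plus strand: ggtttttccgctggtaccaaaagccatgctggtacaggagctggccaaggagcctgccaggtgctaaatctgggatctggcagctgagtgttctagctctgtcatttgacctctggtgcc
Rpl10l, chr12:66284382-66284501, minus strand: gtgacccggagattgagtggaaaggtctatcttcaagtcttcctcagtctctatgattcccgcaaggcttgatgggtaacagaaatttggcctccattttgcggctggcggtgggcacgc
All 5 core promoters shown hold a TOP-like tract, defined as a C within 30 bases of the start that is followed by at least 5 C or T. Rps27 also holds the YY1 core AAGATGG, Rps10 the ETS core CCGGAAG, Rps13 a GC box on the reverse strand, and Rpl35 a GC box on each strand and a CCAAT box on the reverse strand. Neither Rpl3l nor Rpl10l holds any of the elements in the stretch shown. In the longer window used below, Rpl10l holds a GC box. Rpl39l and Rps27rt, paralogues not shown that also had no H3K27ac promoter peak, each hold a TOP-like tract. Rpl39l holds an ETS core as well, so lacking these elements is not a trait of the unmarked paralogues. The RefSeq start lies 301 bp from the GENCODE principal start for Rps10 and 493 bp for Rpl35, against at most 12 bp for the other 5 genes.

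Across the longer window of the table (250 bases before to 50 after the start), 62 of 88 members and 53 of 73 core genes had an entry. A TOP-like tract was present in 43 of the 53 core promoters (81.1%) and in 42.7% of the promoters of 15687 autosomal protein-coding genes. The ETS core, searched on both strands like each motif below, was in 22 core promoters (41.5%, against 12.6% of all). The palindrome TCGCGA was in 14 core promoters (26.4%, against 3.49%), among them Rpl10a, Rps6, Rps15, Rps19 and Rps28. The mitochondrial ribosomal protein genes, whose products build a separate ribosome, held the ETS core in 36.2% of 69 promoters, TCGCGA in 2.90% and a TOP-like tract in 56.5%. The YY1 core was in 8 core promoters (15.1%, against 6.48%), and it can overlap the ETS core by its first 3 letters when AAGATGG follows CCGG. The TATA box TATAAA was in 3 (5.66%, against 13.0%), the CCAAT box in 16 (30.2%, against 38.2%), the GC box GGGCGG in 31 (58.5%, against 49.2%) and the E-box CACGTG in 5 (9.43%, against 8.10%). GC content was close between the sets, with a median of 58.3% in core and 57.3% in all promoters, while the median ratio of observed to expected CpG was 0.925 against 0.615. A match describes the letters in this window and is not a binding site.

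A promoter peak of a gene means here that any base of a peak lay within 1 kb of any annotated start site. The lists held 31978 to 43363 peaks for H3K27ac and 72682 to 117039 for H3K4me1. As a check of the cell label, 11 or 12 of 12 stem and progenitor marker genes had an H3K27ac promoter peak (Gata2 lacked it in 1 list), against 0 of 10 genes not used in blood and 0 of 4 macrophage genes. Among other lineages, 1 of 5 T cell genes had one in each list (Lck), 0 or 1 of 5 B cell genes, 0 or 1 of 5 granulocyte genes (Ltf, in 2 lists), 1 or 2 of 5 erythroid genes and 1 to 3 of 5 endothelial genes. The part that other cells play in the results was not tested.

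All 73 core genes had an H3K27ac promoter peak in all 6 lists, whereas 37.6% of all autosomal protein-coding genes did. In single lists the share over all genes was 42.3% in wild type, 45.7% with Flt3-ITD, 47.8% with NUP98-HOXD13, 42.0% with Runx1-het, 48.1% with Flt3-ITD/NUP98-HOXD13 and 48.8% with Flt3-ITD/Runx1-het. Of the 88 members, 79 had a peak in the wild-type, Flt3-ITD and Runx1-het lists and 78 in the other 3. Over the 6 lists 78 members were always present, 9 were never present (47.5% of all genes) and 1, the retrocopy Rpl9-ps1, was in some lists only (14.96% of all genes). Narrowing the window to 500 bp, or asking for the peak summit within 1 kb, left the core count at 73 in each list. From the 5′ end of the gene record alone it was 69 to 72 per list, with lists of equal length 72 in wild type, and at a deposited −log10 q of at least 5 it was 68 in wild type and 72 with Runx1-het.

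The peaks ranked high in their lists. Strength is given as a percentile, the share of the peaks of a list whose fold enrichment over control, as the authors deposited it, is no higher than that of the highest promoter peak of the gene. The core median was 93.5 in wild type, 94.2 with Flt3-ITD, 93.0 with NUP98-HOXD13, 92.1 with Runx1-het, 93.9 with Flt3-ITD/NUP98-HOXD13 and 95.5 with Flt3-ITD/Runx1-het, while the median over all genes with a promoter peak lay between 81.7 and 86.4. The highest peak was in the top 10% of the list for 43, 51, 47, 40, 56 and 59 of the 73 core genes in the same order. For all genes that share was 15.9%, 15.3%, 16.3%, 13.1%, 15.9% and 19.3%, or 31.1 to 39.5% of the genes with a peak. There were 34 core genes in the top 10% of all 6 lists and 9 in the top 10% of none. The same counts over all genes were not computed, so these stand without a comparison. Among other sets, medians were 91.3 to 94.7 for 22 other TOP and translation genes, 89.9 to 93.9 for 40 ribosome biogenesis genes and 91.3 to 94.7 for 10 ubiquitous genes. The mitochondrial ribosomal protein genes lay lower, at 76.1 to 83.7.

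**Figure D1:**
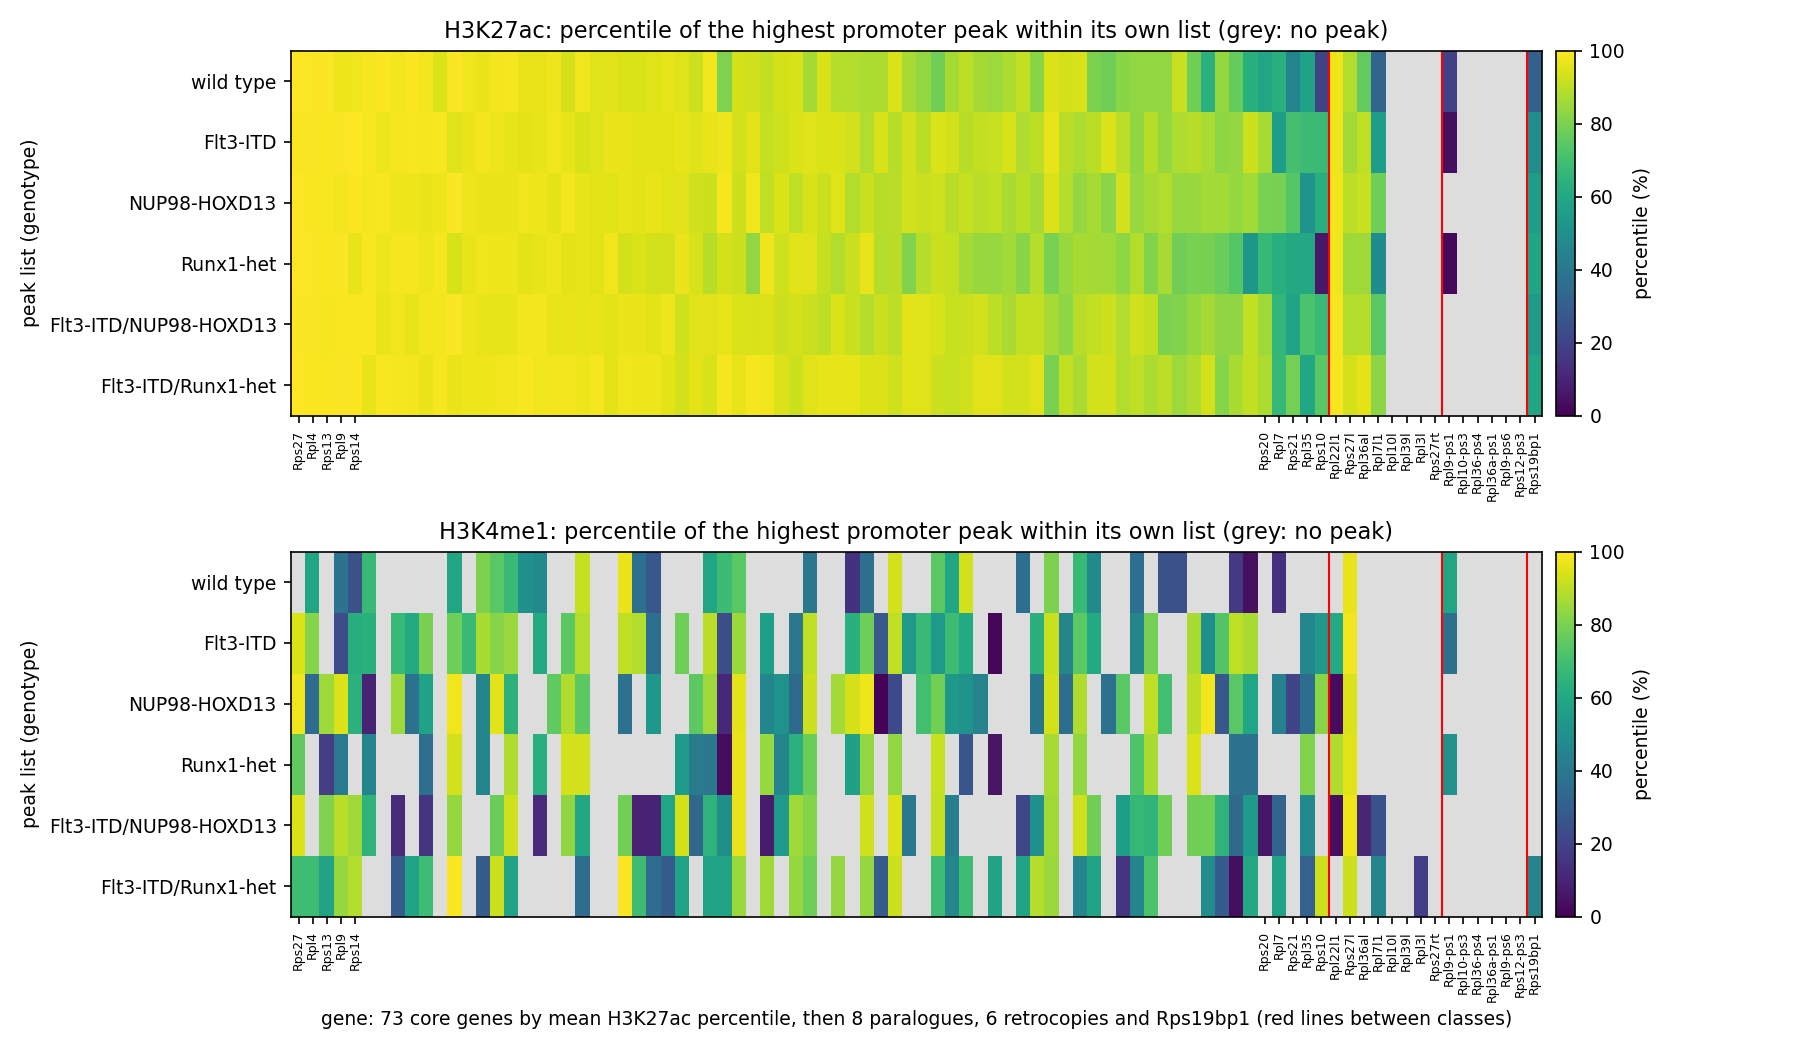
Percentile of the highest promoter peak within its own list, by member (columns) and genotype (rows), for H3K27ac (top) and H3K4me1 (bottom); grey means no peak within 1 kb, and names are given for the 5 highest and 5 lowest core genes and for the other classes. All 73 core genes are filled in each H3K27ac row, most above 90, while H3K4me1 is patchy and 4 of 8 paralogues and 5 of 6 retrocopies are grey in all H3K27ac rows.

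The core genes differed among themselves, and much of the order held from list to list. Rps27, a zinc finger protein of the small subunit, had the highest mean percentile, with a fold enrichment of 30.7 in wild type, 34.6 with Flt3-ITD, 34.6 with NUP98-HOXD13, 50.6 with Runx1-het, 41.5 with Flt3-ITD/NUP98-HOXD13 and 41.3 with Flt3-ITD/Runx1-het. Its percentile lay between 99.1 and 99.8. It had the highest fold enrichment of the core genes in 4 lists, while Rps14 (42.7) was highest with Flt3-ITD and Rpl4 (43.7) with Flt3-ITD/NUP98-HOXD13. In wild type the peak spanned chr3:90212004-90214108 and so covered the whole gene (chr3:90212522-90213651). Its window also holds the start of the neighbour Rab13, so the peak cannot be assigned to 1 of the 2 genes. Rpl4, which lines the peptide exit tunnel, had fold enrichments of 25.4, 41.1, 26.0, 40.9, 43.7 and 28.6 in the same list order and shares its window with Zwilch. Next came Rps13 (27.7, 36.0, 27.5, 33.7, 33.6 and 29.4), with no other coding start in its window, then Rpl9, which shares its window with Lias, and Rps14, the small subunit gene lost in a deletion syndrome of the myeloid lineage, which shares its window with Ndst1. The lowest percentile of any of the 5 in any list was 96.7. These values order peaks within a list and show no change between lists.

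Rps10, one of the Diamond-Blackfan genes, was lowest among the core genes on average. Its fold enrichment was 3.35 in wild type, 5.93 with Flt3-ITD, 5.01 with NUP98-HOXD13, 3.21 with Runx1-het, 6.33 with Flt3-ITD/NUP98-HOXD13 and 6.38 with Flt3-ITD/Runx1-het. The percentiles were 19.3, 68.1, 63.2, 6.40, 67.7 and 74.4, so the wild-type and Runx1-het lists stood well below the other 4. The wild-type peak was also the narrowest (221 bp, against 778 to 1216 bp) and lay elsewhere, at chr17:27635982-27636202, while the Runx1-het peak, at chr17:27634318-27635095, lay where the peaks of the other mutants do. The wild-type peak covered no annotated Rps10 start and lay 437 bp from the nearest, yet it counts as a promoter peak here. In each mutant list a peak covered a start. The annotation places a read-through transcript, RPS10-NUDT3, in the same window. Rpl35, Rps21 and Rpl7, all parts of the ribosome, followed with mean percentiles of 61.6, 64.5 and 65.9. Among members outside the core, Rps19bp1 (mean 51.6) and the paralogue Rpl7l1 (61.9) were as low.

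Ranking the core genes by fold enrichment in 2 lists gave Spearman coefficients from 0.72 to 0.89 over the 15 pairs of lists (median 0.82, n = 73 genes). Over all genes with a peak in both lists the coefficients ran from 0.80 to 0.92 (median 0.87). The points share the library pool and control of each list, and genes are not replicates, so no p is given. Rplp2 and Rpl30 moved most within the core order. Rplp2, an acidic stalk protein, ran from place 8 to place 61 of the 73 across lists. Rpl30, a large subunit protein, ran from place 19 to place 69. By subunit, the median of the mean percentiles was 92.9 for 43 large subunit genes and 93.7 for 30 small subunit genes. It was 92.4 for the 28 core genes that host a snoRNA and 93.3 for the other 45, and 93.6 for the 18 that share their window with another coding start and 93.0 for the other 55.

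The H3K27ac peaks of the core genes had a higher median width than those of other genes in each list and leaned into the gene. Their median width was 1588 bp for the wild-type list and 1908 to 2334 bp for the mutant lists. Promoter peaks of other genes had a median of 1031 bp in wild type and 1570 to 1950 bp in the mutant lists. The median of all peaks of a list, at promoters or elsewhere, was 389 to 888 bp. The width was not particular to the core genes. Medians were 2016 to 2714.5 bp for the other TOP and translation genes and 2341 to 3320.5 bp for the ubiquitous genes, above the core in each list. The summit lay downstream of the principal start, the start of the best supported coding transcript, in 51 core genes of the wild-type list and in 59 to 63 of the mutant lists, at a median of +221 to +287 bp. Other genes with a peak had a median of +89 to +170 bp. Their summits were downstream for 54.5% (wild-type list) and 57.0 to 63.9% (mutant lists) of them. The core shares were 69.9% and 80.8 to 86.3%, so a downstream summit was common outside the core too. Core genes have a median length of 3368 bp, against 17629 bp for all genes, and 1 promoter peak lay over a median of 33.1% (wild type) to 50.8% (Flt3-ITD/NUP98-HOXD13) of the gene, against 2.17 to 4.80% for other genes with a peak. Wild type had both the narrowest core peaks and the narrowest peaks of the H3K27ac lists as a whole. Whether the difference in core peak width goes beyond that of the lists was not tested.

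**Figure D2:**
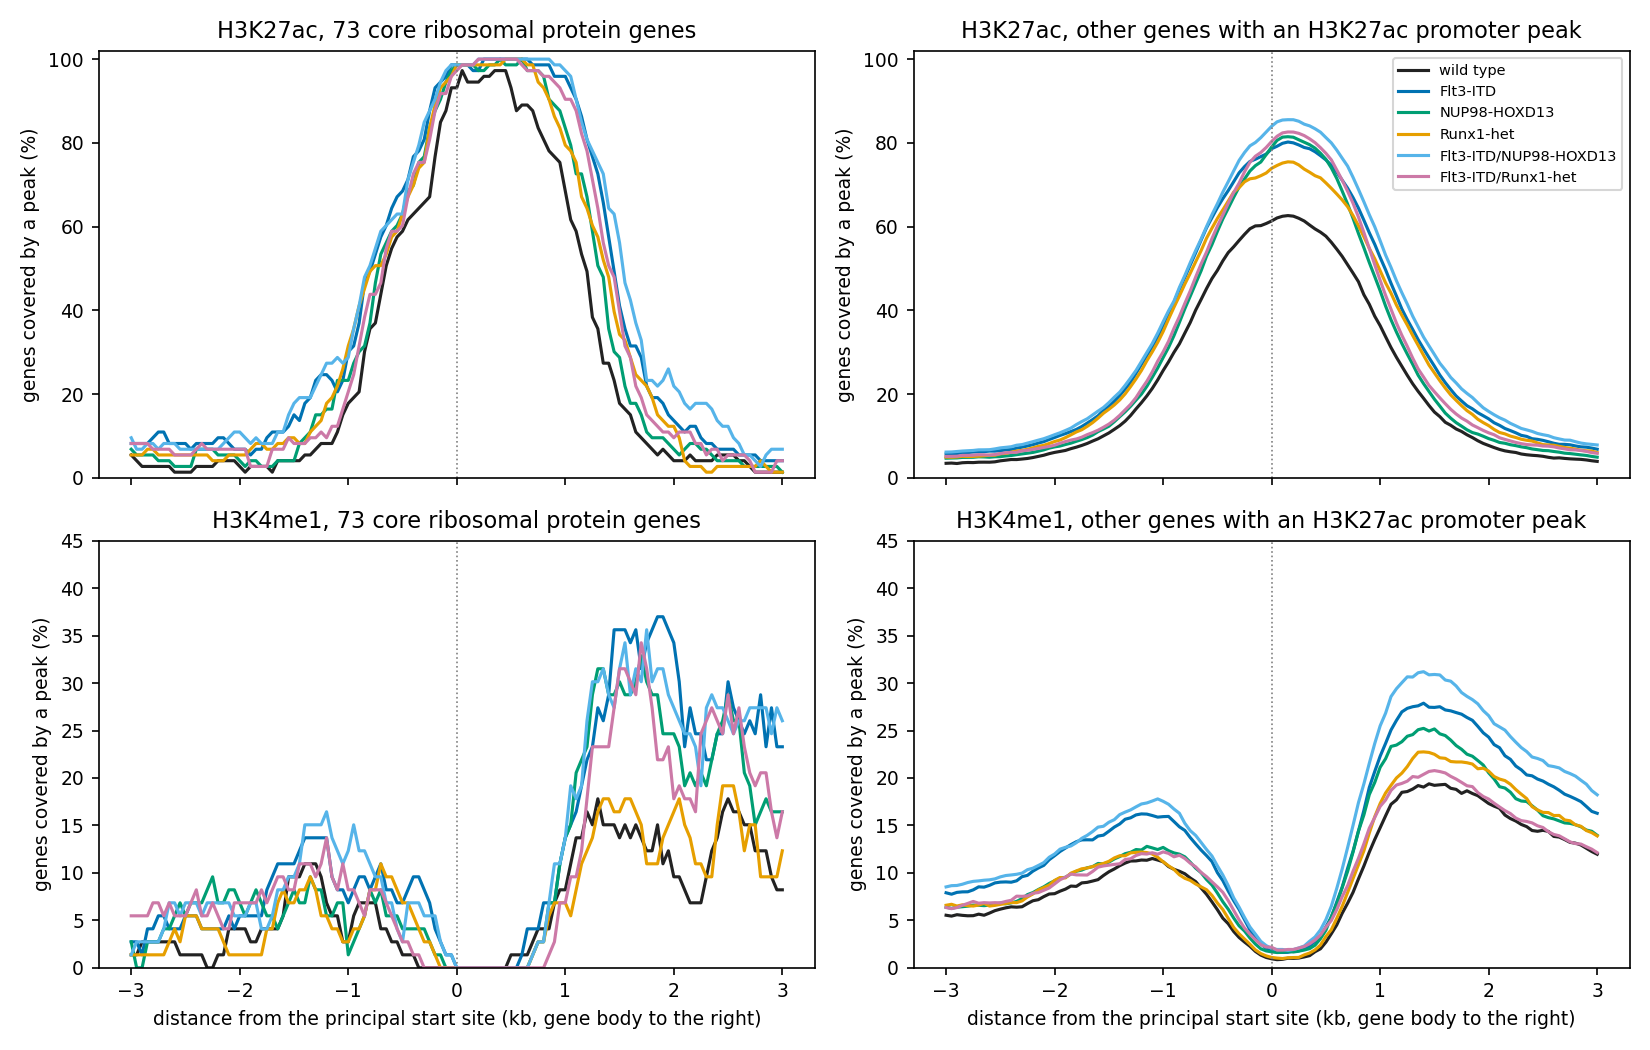
Percent of genes covered by a peak at each distance from the principal start site (in kb, gene body to the right), for H3K27ac (top) and H3K4me1 (bottom), in the 73 core genes (left) and in other genes with an H3K27ac promoter peak in the list (right); each line is a pooled list. H3K27ac covers the start in 68 to 72 core genes. H3K4me1 covers it in 0 of 73 in all 6 lists, and in 0.952 to 2.17% of the other genes. In the core genes H3K4me1 is highest 1300 to 2450 bp downstream.

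No core gene had an H3K27ac promoter peak in one list and not in the other in any of the 7 genotype comparisons (5 mutants against wild type, and each double mutant against the matching mutant without Flt3-ITD). Over all genes, 5.21% had a peak in Flt3-ITD and not in wild type and 1.83% the reverse. The shares against wild type were 7.16% and 1.59% for NUP98-HOXD13, 3.48% and 3.74% for Runx1-het, 7.21% and 1.42% for Flt3-ITD/NUP98-HOXD13, and 7.74% and 1.21% for Flt3-ITD/Runx1-het. With Flt3-ITD added to NUP98-HOXD13 they were 1.83% and 1.61%, and added to Runx1-het 7.56% and 0.764%. This did not hold under each setting. From the 5′ end of the gene record alone, Rpl17 was missing from all 6 lists and Rpl3, Rps2, Rps10 and Rps24 from some. The comparisons against wild type share the wild-type list. The 1 difference among the members was Rpl9-ps1, present in wild type and Runx1-het and missing from NUP98-HOXD13 and both double mutants.

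The mitochondrial ribosomal protein genes, measured the same way, were less complete. Of 78, 59 had an H3K27ac promoter peak in wild type, 70 with Flt3-ITD, 77 with NUP98-HOXD13, 67 with Runx1-het, 77 with Flt3-ITD/NUP98-HOXD13 and 75 with Flt3-ITD/Runx1-het. Ribosome biogenesis genes, which encode the factors that assemble ribosomes, stood at 34, 40, 40, 38, 40 and 39 of 40. The other TOP and translation genes stood at 21, 22, 22, 21, 22 and 22 of 22. The core count was at its ceiling of 73 in each list, so presence alone could not show a difference there. At the stricter −log10 q, wild type lacked Rpl7, Rpl35, Rps10, Rps20 and Rps21, Runx1-het lacked Rps10, and the other 4 lists held all 73. Over all genes the shares at that threshold were 32.6% for wild type and 38.7 to 44.6% for the mutants, so wild type was lowest there too.

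**Figure D3:**
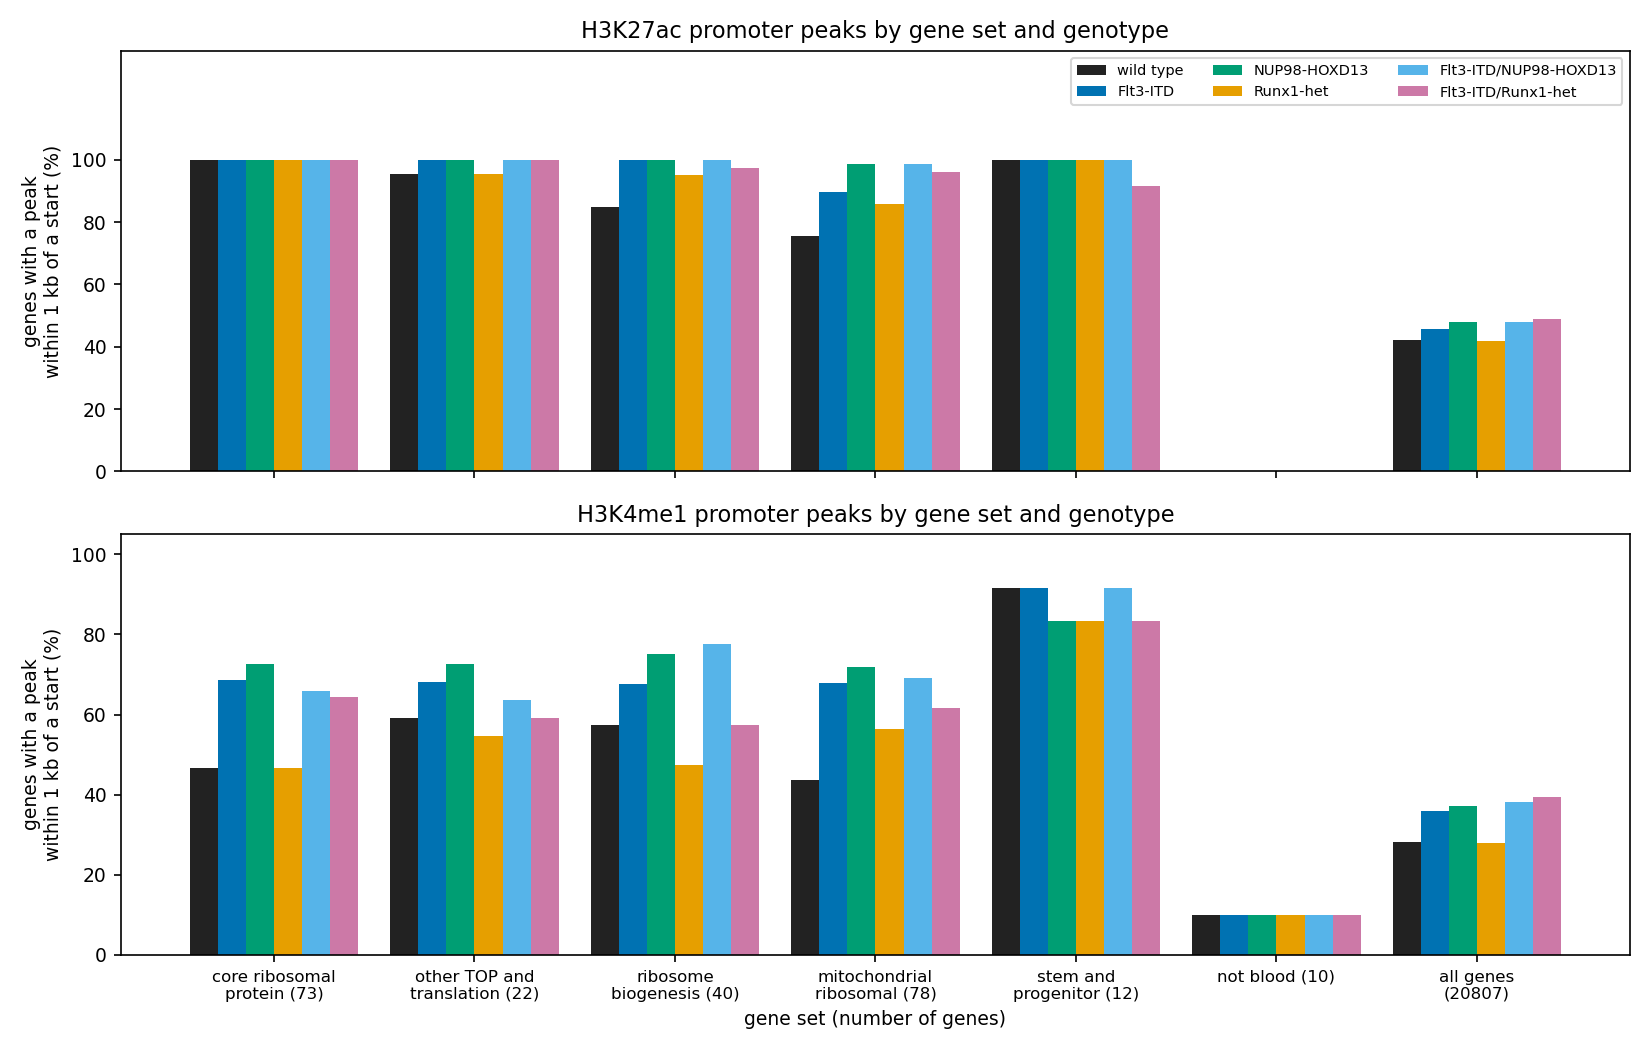
Percent of the genes of each set with an H3K27ac (top) or H3K4me1 (bottom) peak within 1 kb of a start site, 1 bar per genotype (pooled list). The core bars stand at 100% for H3K27ac in all 6 lists, and between 46.6 and 72.6% for H3K4me1.

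The paralogues split evenly for H3K27ac, with 4 of 8 in all 6 lists (37.6% of all genes) and 4 in none (47.5% of all genes). So few genes do not tell the split from these shares. Rpl22l1, Rps27l, Rpl36al and Rpl7l1 had a promoter peak in all 6 lists. Rpl22l1, a paralogue of Rpl22, was the highest of them, at the 97.6th to 98.7th percentile, above the core median in every list. Rps27l, a p53 target, lay between 85.7 and 93.5 and Rpl36al, related to the X-linked Rpl36a, between 76.0 and 95.9. Rpl7l1 was lower and more scattered, from 32.1 in wild type to 82.7 with Flt3-ITD/Runx1-het. Rpl36al shares its window with Mgat2.

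Rpl3l (typical of heart and skeletal muscle), Rpl10l and Rpl39l (typical of testis) and the retrogene Rps27rt had no H3K27ac promoter peak in any list. The nearest peak to an Rpl3l start was 1027 bp away in NUP98-HOXD13, just outside the window, and 2826 to 3552 bp away in the other lists. It was at least 114895 bp away for Rpl39l and at least 1110647 bp for Rpl10l. Among the retrocopies, Rpl10-ps3, Rpl36-ps4, Rpl36a-ps1, Rpl9-ps6 and Rps12-ps3 had none. Rpl9-ps1 (chr11:83645046-83645621) had one at a fold enrichment of 3.35 in wild type, 2.82 with Flt3-ITD and 2.83 with Runx1-het, at or below the 19.3rd percentile. The peak lay 971 bp from the start in wild type and 866 bp in Runx1-het, near the edge of the window, and 420 bp from it in Flt3-ITD. Reads of near-identical copies may be dropped or misplaced in alignment, and how multiply mapped reads were treated is stated by none of the labels, so the low counts of the retrocopies are uncertain.

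H3K4me1 was patchy on the same genes. With any annotated start, 34 core genes had an H3K4me1 promoter peak in wild type, 50 with Flt3-ITD, 53 with NUP98-HOXD13, 34 with Runx1-het, 48 with Flt3-ITD/NUP98-HOXD13 and 47 with Flt3-ITD/Runx1-het. Over the 88 members the counts were 36, 53, 55, 37, 52 and 51, and over all genes the shares were 28.3%, 35.9%, 37.1%, 27.9%, 38.2% and 39.4%. The wild-type and Runx1-het lists, with the fewest core genes, were also the shortest (73506 and 72682 peaks, against 94580 to 117039). When the lists were cut to equal length, the 72682 strongest peaks of each, the core counts were 34, 49, 50, 34, 42 and 38. Over all genes the shares were then 28.0%, 30.7%, 31.6%, 27.9%, 32.7% and 28.6%. For the core, wild type and Runx1-het thus stayed lowest and Flt3-ITD/Runx1-het came closer to them. The order did not hold at a −log10 q of at least 5, where the core counts were 10, 18, 9, 18, 16 and 11. Runx1-het was there tied with Flt3-ITD for the highest and NUP98-HOXD13 was lowest. Over all genes the shares at that threshold were 12.2%, 13.1%, 4.36%, 12.3%, 12.3% and 10.1%. NUP98-HOXD13 was thus lowest over all genes too, while its core share was 12.3%. Of all members, 16 had a peak in all 6 lists (12.7% of all genes), 15 in none (42.9%) and 57 in some lists only (44.4%).

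The count depended on the start sites used. Core genes have a median of 6 annotated starts per gene, against 3 for all genes, and the joined windows around them have a median length of 3282 bp, against 4002 bp for all genes. Counting from the 5′ end of the gene record alone, 14, 23, 21, 17, 22 and 14 core genes had an H3K4me1 peak within 1 kb (19.2 to 31.5%), so Flt3-ITD/Runx1-het was level with wild type and below Runx1-het. Over all genes the shares were then 18.0%, 24.9%, 25.7%, 18.3%, 27.3% and 27.2%. The core excess over all genes was thus much smaller than with any start. With Flt3-ITD/Runx1-het the core share, 19.2%, was below that of all genes. Genes outside the set with an H3K27ac promoter peak in all 6 lists (7736) are a closer comparison than all genes. Of these, 54.0 to 70.2% had an H3K4me1 peak with any start, a range that overlaps the core range of 46.6 to 72.6%. From the 5′ end alone 34.5 to 50.1% of them did, and the core share was lower in each of the 6 lists.

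**Figure D4:**
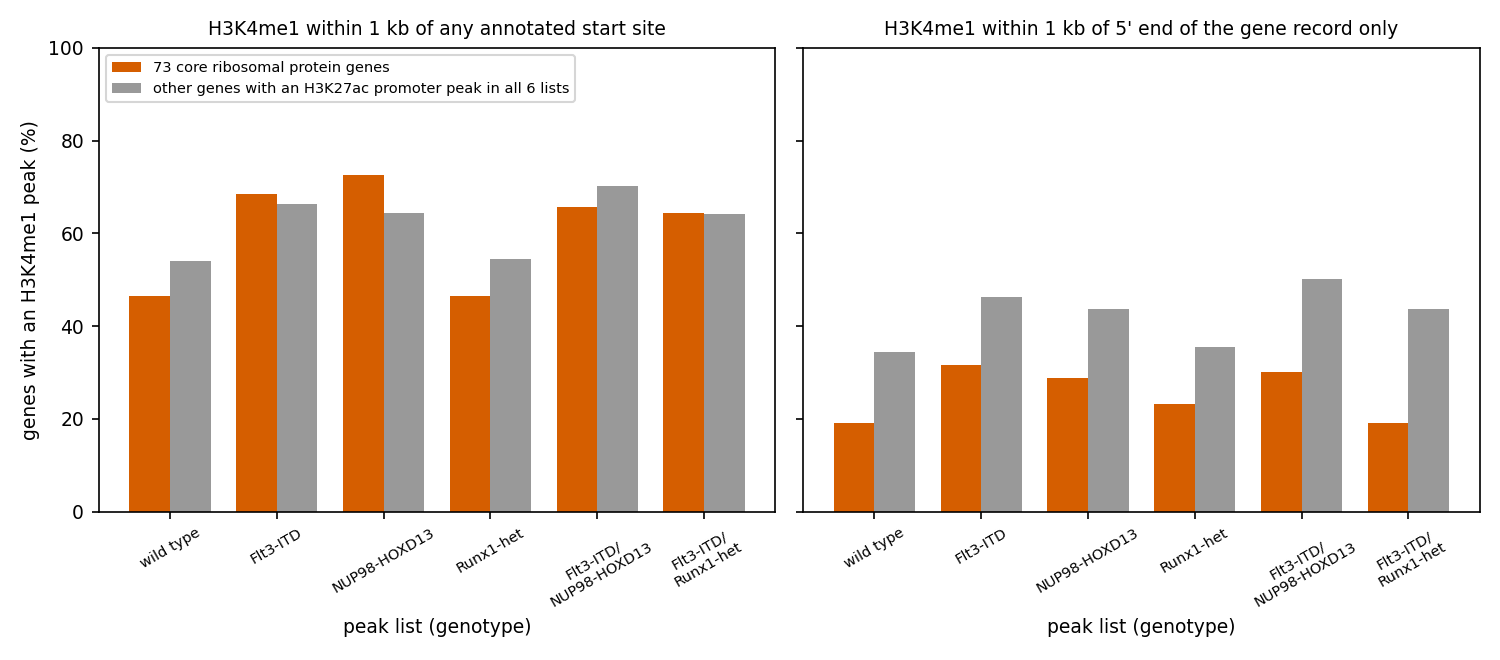
Percent of genes with an H3K4me1 peak within 1 kb of any annotated start (left) or of the 5′ end of the gene record (right), for the 73 core genes (orange) and for other genes with an H3K27ac promoter peak in all 6 lists (grey), by genotype. On the left neither set is higher throughout; on the right the core bars (19.2 to 31.5%) are below the grey ones (34.5 to 50.1%) in all 6 lists.

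By position, no H3K4me1 peak covered the principal start of any core gene in any list. Of the other genes with an H3K27ac promoter peak, 0.952 to 2.17% had it covered. The 73 core genes are too few to tell 0 from such a share. Rpl11, Rpl30 and Rpl6 had another annotated start covered by H3K4me1 in all 6 lists. The core genes were most often covered downstream. The highest coverage was 17.8% of genes at 1300 bp in wild type, 37.0% at 1850 bp with Flt3-ITD, 32.9% at 1700 bp with NUP98-HOXD13, 19.2% at 2450 bp with Runx1-het, 35.6% at 1750 bp with Flt3-ITD/NUP98-HOXD13 and 34.2% at 1700 bp with Flt3-ITD/Runx1-het. Upstream it reached 9.59 to 16.4%. Within 3 kb, 39 core genes in wild type (53.4%) and 62 with Flt3-ITD/Runx1-het (84.9%) had H3K4me1 downstream. Of the other genes with an H3K27ac promoter peak, 54.5% and 66.4% did. Upstream, 17 (23.3%) and 28 (38.4%) core genes had it, against 37.2% and 46.0% of the other genes. Other genes with a peak had the same form, with maxima of 19.4 to 31.2% downstream and 11.5 to 17.8% upstream.

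The core genes with H3K4me1 in all 6 lists were 15, among them Rpl11, which binds MDM2 when ribosome assembly fails, and Rpl30, Rpl6, Rpl21 and Rpl18. Rpl11 reached the 74.5th percentile of the H3K4me1 list in wild type, 84.8 with Flt3-ITD, 95.7 with NUP98-HOXD13, 96.7 with Runx1-het, 96.9 with Flt3-ITD/NUP98-HOXD13 and 85.1 with Flt3-ITD/Runx1-het. The paralogue Rps27l was also in all 6, at 92.2 to 98.2, the highest mean of these 6 genes. The other end was held by 7 core genes with H3K4me1 in none: Rpl32, Rpl38, Rpl41, Rps6, Rps15, Rps25 and Rps26. Their mean H3K27ac percentiles ran from 89.4 to 98.3, with a median of 96.1, against 92.3 for the other 66. For Rpl41, which encodes a very short peptide, the nearest H3K4me1 peak was 1134 to 11651 bp from a start, and for Rps6, the target of the S6 kinases, 1565 to 1750 bp. Members of other classes with none included Rpl10l, Rpl39l, Rps27rt, Rpl36-ps4 and Rpl36a-ps1, which lacked H3K27ac as well.

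The presence of H3K4me1 at core genes differed between lists in all 7 comparisons, which carry the difference in list length given above. In Flt3-ITD and not in wild type there were 21 core genes (28.8%, against 13.5% of all genes), and 5 (6.85%, against 5.89%) in the reverse. For NUP98-HOXD13 they were 26 (35.6%, against 15.6%) and 7 (9.59%, against 6.76%), and for Runx1-het 13 (17.8%, against 8.92%) and 13 (17.8%, against 9.26%). Flt3-ITD/NUP98-HOXD13 had 20 (27.4%, against 15.2%) and 6 (8.22%, against 5.28%), and Flt3-ITD/Runx1-het 19 (26.0%, against 18.1%) and 6 (8.22%, against 6.99%). With Flt3-ITD added to NUP98-HOXD13, 9 were in the double mutant alone (12.3%, against 9.20%) and 14 with NUP98-HOXD13 alone (19.2%, against 8.09%). Added to Runx1-het, 20 were in the double mutant alone (27.4%, against 18.2%) and 7 with Runx1-het alone (9.59%, against 6.79%). The mitochondrial ribosomal protein genes also exceeded all genes in peaks of a mutant list that wild type lacked. In the order of the mutants above, their shares were 29.5%, 30.8%, 23.1%, 29.5% and 26.9%. In the reverse they were 5.13%, 2.56%, 10.3%, 3.85% and 8.97%. Higher shares in the mutant lists than over all genes were thus not particular to the core genes. The order of the core genes by H3K4me1 fold enrichment varied too, with Spearman coefficients from -0.16 to 0.45 between lists (median 0.30). Each rests on the 21 to 42 core genes with a peak in both lists. Over all genes the coefficients ran from 0.24 to 0.43 (median 0.36), so the weak agreement was not particular to the core genes.

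Rpl13a, Rpl14, Rpl23a, Rpl35, Rps27 and Rpsa had H3K4me1 in all 5 mutant lists and not in wild type, a pattern of 2.75% of all genes. Rpl17 and Rplp1 had it in wild type and in no mutant list (1.04% of all genes). Rps27 lay at the 94.2nd percentile in Flt3-ITD, 97.8 with NUP98-HOXD13, 75.4 with Runx1-het, 94.7 with Flt3-ITD/NUP98-HOXD13 and 68.9 with Flt3-ITD/Runx1-het. With 1 pooled list per genotype, these patterns have no replicate check.

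The 9 Diamond-Blackfan genes considered here all had H3K27ac in all 6 lists. Rps24 was the highest, with percentiles from 96.6 to 98.2, followed by Rps26 (95.0 to 97.8) and Rps7 (93.4 to 97.6). Rps19, the gene most often mutated in the disease, lay between 86.6 and 93.4. Rpl5 (83.4 to 92.7), Rpl35a (73.7 to 87.4) and Rps10 were lower. The median of their mean percentiles was 90.6, against 93.2 for the other 64 core genes. For H3K4me1, Rpl11 and Rpl35a were in 6 lists, Rps7, Rps19, Rps24 and Rpl5 in 5, Rps10 in 3 and Rps26 in none.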

How the data were processed

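H3K27ac and H3K4me1 were measured in 39 samples of 12 groups; 1 input sample was not analysed here. The submitters' processing notes name BWA, MACS2 and the build mm10 (GRCm38). Software versions were not given in the sources used here, nor was the peak threshold. The authors deposited 1 list per group, pooled over its samples. Each deposited peak has a score, a ratio (fold enrichment over control), a −log10 p, a −log10 q and a summit position. The deposited fold enrichment ordered peaks within a list, and the deposited −log10 p and −log10 q set 2 of the alternatives. The score was not used. Sequencing depth, and so the precision it gives, is unknown per the labels.

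Start sites of all transcripts of protein-coding genes came from GENCODE mouse release 21. A promoter peak is a peak with any base within 1 kb of a start site, and the highest by fold enrichment was used per gene. Groups came from the sample labels. Since the lists are pooled, no test was run, and counts are set beside those over all 20807 autosomal protein-coding genes. Python 3.11.15 with pandas 2.3.3 and numpy 2.4.6 was used, and the peak assignment was tested on simulated data. The results were recomputed under 7 other settings: the 5′ end of the gene record only, windows of 500 bp and 2 kb, the summit within 1 kb, lists of equal length by −log10 p, a −log10 q of at least 5, and the chromosome X genes added. An eighth, leaving out members that share their window with another gene, was added after the data were seen. Genes named in the text are members lacking H3K27ac in a list or differing between lists, the 5 highest and 5 lowest by mean percentile, the 5 with H3K4me1 in most and in fewest lists, and the paralogue and Diamond-Blackfan lists. Others, such as the remaining core genes without H3K4me1, were chosen after their values were seen. The members and gene lists were chosen with earlier results of these data known. No RefSeq promoter entry was used for Rpl3, Rpl7, Rpl8, Rpl17, Rpl21, Rpl23a, Rpl29, Rpl30, Rpl32, Rpl36, Rplp1, Rps14, Rps20, Rps27a, Rps29, Rpl9-ps1, Rpl9-ps6, Rpl10-ps3, Rpl36-ps4, Rpl36a-ps1 or Rps12-ps3. Values of some single genes are not reported here.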

Additional observations from a re-analysis of the deposited data

How the results depend on the processing

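Over 38 results and 8 alternatives, 223 of 304 values stayed within 1.5 times the reported count and 81 did not. The number of members with H3K27ac stayed within 1.5 times in each list under all 8. Counts below are of members, and 6 in a row follow the order of the H3K27ac shares in the report, from wild type to Flt3-ITD/Runx1-het. The values that did not comprise results of both marks. From the 5′ end of the gene record only, members with an H3K4me1 promoter peak were 16, 25, 23, 20, 25 and 17, with 3 in all 6 lists and 37 in none. Within 500 bp they were 22 in wild type, 24 with Runx1-het, 30 with Flt3-ITD/NUP98-HOXD13 and 33 with Flt3-ITD/Runx1-het, with 10 in all lists and 35 in none. Within 2 kb they were 56 in Runx1-het, with 31 in all lists and 9 in none. At a −log10 q of at least 5 they were 11, 19, 10, 20, 17 and 12, so Runx1-het became the highest and NUP98-HOXD13 the lowest, with 2 in all lists, 51 in none and 35 in some, and members in the top 10% by H3K27ac were 22 in wild type, 27 with NUP98-HOXD13, 35 with Flt3-ITD/NUP98-HOXD13 and 38 with Flt3-ITD/Runx1-het, where fewer peaks are ranked.

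Members with H3K27ac in some lists only were 5 from the 5′ end, 2 within 2 kb, 3 with equal lengths, 7 at the stricter q and 2 with the X genes. Members whose H3K27ac differed between 2 lists were few, so single genes move the count. Against wild type, in the order of the 5 mutants, they were 3, 4, 4, 3 and 5 from the 5′ end, and 7, 6, 6, 7 and 6 at the stricter q. With equal lengths they were 2, 2, 3, 2 and 2. Within 500 bp they were 1 for Flt3-ITD and 0 for NUP98-HOXD13 and both double mutants. Within 2 kb they were 2 for NUP98-HOXD13 and 0 for Flt3-ITD/NUP98-HOXD13. By summit they were 1 for Flt3-ITD and Runx1-het and 0 for the other 3. With the X genes they were 1 for Flt3-ITD and 2 for NUP98-HOXD13 and both double mutants. For Flt3-ITD/NUP98-HOXD13 against NUP98-HOXD13 they were 1 from the 5′ end, 2 within 2 kb and 1 at the stricter q. For Flt3-ITD/Runx1-het against Runx1-het they were 0 within 500 bp, 2 at the stricter q and 2 with the X genes.

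Members whose H3K4me1 differed were, at the stricter q, 14 for Flt3-ITD, 15 for NUP98-HOXD13, 18 for Flt3-ITD/NUP98-HOXD13 and, among the others, 11 for Flt3-ITD/Runx1-het against wild type. They were 11 between Flt3-ITD/NUP98-HOXD13 and NUP98-HOXD13, and 18 for Flt3-ITD/Runx1-het against Runx1-het. Within 500 bp they were 18 for Flt3-ITD/NUP98-HOXD13 against wild type and 21 for Flt3-ITD/Runx1-het against Runx1-het. From the 5′ end they were 19 for Flt3-ITD/Runx1-het against wild type. Without members that share a window they were 16 for Flt3-ITD/NUP98-HOXD13 against NUP98-HOXD13. For moves other than the shorter ranking, the cause was not tested. No paired analysis was possible because each list pools its samples. No sample could be left out for the same reason, and depth is unknown.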
